A study of Mus musculus with 4 samples.

Results

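The collagen genes outside type IV are the genes whose chains build the fibrils, microfibrils and other matrix assemblies between the cells of the heart. Members were all protein-coding genes of the mouse annotation whose symbol is Col, a number, the letter a and a number, with the type IV chains of basement membranes left out. This gave 38 of 21755 protein-coding genes, of which 11 encode fibrillar chains (types I, II, III, V, XI, XXIV and XXVII) and 27 encode other types. Chromatin accessibility was measured by ATAC-Seq, in which the Tn5 transposase inserts adapters into open DNA, in nuclei from whole hearts of male mice aged 8 to 12 weeks on a C57BL/6 background. All animals carried NuTRAP/Cdh5-Cre, a GFP reporter that Cre recombinase under the endothelial *Cdh5* promoter switches on, so that GFP marks cells of endothelial descent, also where they no longer express *Cdh5*. Sorting gave 2 replicates of GFP+ (endothelial) and 2 of GFP- (non-endothelial) nuclei, with 100 to 50000 nuclei and 2.5 µL of Tn5 per 50000 nuclei. The GFP- nuclei are a mixture of the other heart cell types that passed sorting, and the labels do not say whether replicates were single hearts or pools. The paper's sort kept single nuclei of diploid DNA content before the GFP gate, so nuclei of higher DNA content were left out.

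Collagen chains wind in threes into a triple helix. Fibrillar procollagens are trimmed outside the cell, align into fibrils and are cross-linked, and types I and III make most of the interstitial fibrils of the heart, with type V chains inside them. Type VI chains form beaded microfibrils around cells. Other types coat fibrils (the FACIT types), link basement membranes to fibrils (types XV and XVIII, the multiplexins) or span the cell membrane. In the heart, fibroblasts and mural cells are known as the main source of interstitial collagen, and endothelial cells are known for the type IV chains beneath them.

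A single peak list was deposited for each population, called by the authors from both replicates together. Differences between the populations therefore have no replicate check, no test was possible and no p-value is given. The GFP- list held 78912 peaks and the GFP+ list 65008. The area of a peak is the authors' significance signal summed over its length. Peaks were ranked by area among the peaks of the same list, and the rank is given as a percentile, with 100 for the largest. A start peak overlaps the 250 bp to either side of any annotated transcript start of a gene, and a gene without one has rank 0 in that list. Positions are in mm10. Of 8 endothelial marker genes, 6 had a start peak ranked more than 20 points higher in GFP+ than in GFP-, with *Cdh5* at 85.3 against 18.0, and *Tek* ranked lower, at 54.1 against 81.1. Of 7 fibroblast markers, *Tcf21*, *Dpt*, *Dcn* and *Mfap5* had a start peak in GFP- only, *Pdgfra* and *Gsn* had one in both lists, and *Lum* in neither. Of 7 mural markers, all had a GFP- start peak and 3 a GFP+ one, and *Pdgfrb* ranked 83.0 in GFP- with no GFP+ start peak. The 6 of 7 cardiomyocyte markers with a start peak kept it within 20 points in both lists. Of 6 leukocyte and 4 Schwann cell markers, 1 each had a start peak, in both lists. Fewer open cells in a mixture and less open chromatin per nucleus cannot be told apart in these lists.

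A start peak was found at 26 of the 38 collagen genes in GFP- nuclei and at 14 in GFP+ nuclei. In 13 genes it was in both lists, in 13 only in GFP-, in 1 only in GFP+ and in 11 in neither. Of the 27 genes with a start peak, 19 (70.4%) ranked over 20 points lower in GFP+, where 7.33% of the 13643 genes of the annotation with a start peak did so. No collagen gene (0 of 27) ranked higher by more than 20 points, against 1.94% of all genes. A start peak in GFP- only was found in 48.1% of the 27 collagen genes and in 4.71% of all genes. The GFP+ rank minus the GFP- rank had a median of -32.0 points over the collagen genes and -0.814 over all genes. Just past the 20 points were *Col27a1* at -20.4 and *Col8a2* at -20.9, and nearest below them was *Col1a1* at -14.9.

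**Figure D1:**
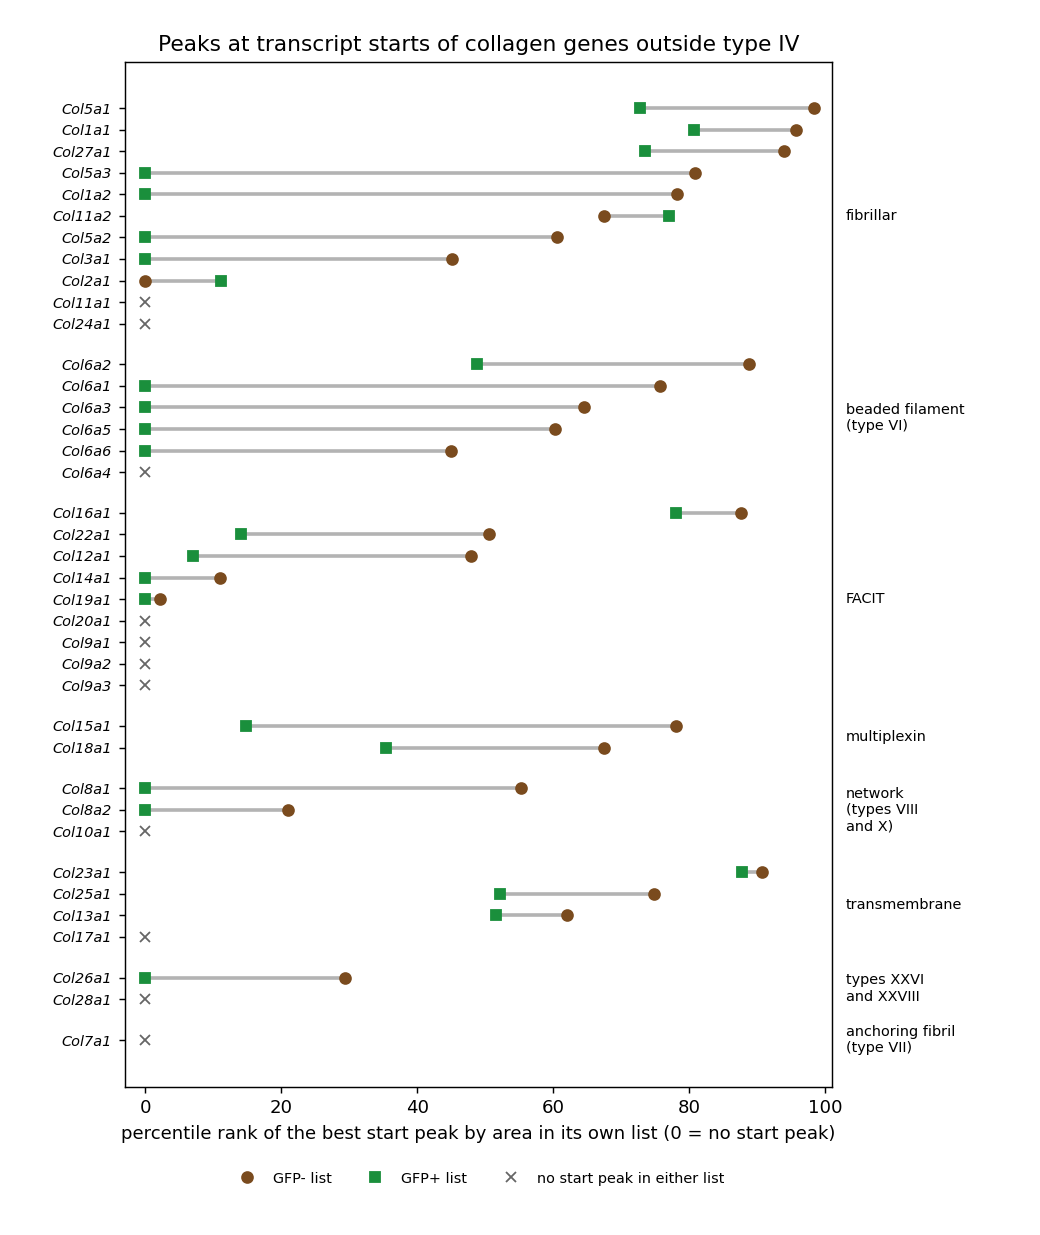
Percentile rank of the best start peak of each of the 38 collagen genes in the GFP- list (brown circles) and in the GFP+ list (green squares), with 0 for no peak and crosses for genes without a start peak in either list. Green lies left of brown in 25 of the 27 genes with a peak, and right of it in *Col11a2* and *Col2a1*.

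Of the fibrillar genes, 9 of 11 had a start peak and 6 of these ranked over 20 points lower in GFP+, with a median rank difference of -25.6. *Col1a1* and *Col1a2* encode the chains of type I collagen, the most abundant fibrillar collagen. *Col1a1* had a GFP- start peak of 2463 bp at rank 95.6, chr11:94935686-94938148, which spans the start of the coding transcript and a noncoding start 1.46 kb inside the gene. Its GFP+ peak, at rank 80.7, was 911 bp long, chr11:94936636-94937546, and reached only the inner start. The 5′ end of *Col1a1* itself thus had a start peak in GFP- and none in GFP+, although the difference of the best peaks was only -14.9 points. The GFP- start peak of *Col1a2* ranked 78.3, chr6:4504956-4505970, and GFP+ nuclei had no start peak there. *Col3a1*, the chain of type III collagen, had a GFP- start peak at rank 45.1, chr1:45311435-45311750, and none in GFP+. The peaks of *Col1a2* and *Col3a1* also reach within 250 bp of a start of the neighbouring genes *Gm43921* and *Gm47302*.

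Type V chains regulate how thick fibrils grow, and here they split. *Col5a1*, present in nearly all type V molecules, had the highest-ranked start peak of all members, at 98.3 in GFP- and 72.8 in GFP+. It spanned 4074 bp in GFP- and 1489 bp in GFP+, and it reaches within 250 bp of a start of *2810430I11Rik* too. *Col5a2* (60.6 in GFP-) and *Col5a3* (80.9 in GFP-) had no start peak in GFP+. *Col5a3* had the largest rank difference of all members, -80.9. *Col27a1*, a fibrillar chain known from cartilage, ranked 93.9 in GFP- and 73.5 in GFP+ at a start 1.43 kb inside its gene record. It had 2 more start peaks in GFP-. The one at rank 65.3 lay at a start without a GFP+ start peak. The one at rank 42.9 lay at the 5′ end, where GFP+ had a start peak at rank 24.2. The 2 members that ranked higher in GFP+ are also fibrillar chains known from cartilage. *Col11a2* ranked 67.4 in GFP- and 77.1 in GFP+, with peaks of 807 and 1957 bp. *Col2a1* had no GFP- start peak and a GFP+ one at rank 11.2, chr15:98004444-98004900. *Col11a1* and *Col24a1* had no start peak in either list.

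The 250 bases before the 5′ ends of *Col1a1*, *Col1a2*, *Col3a1* and *Col5a3* are shown as examples of starts with a GFP- peak and no GFP+ peak. Other members, among them the fibrillar gene *Col5a2*, had such starts too and are not shown. They are from GRCm38.p6 (mm10), 5′ to 3′ on the strand of the gene, the last base being the one before the start. Capitals mark matches to the letters of the CCAAT box, of the GC box of SP1 (GGGCGG) and of the TATA box (TATAAA). Each was matched on either strand and at any position in the 250 bases.
*Col1a1*, chr11:94935974-94936223, plus strand: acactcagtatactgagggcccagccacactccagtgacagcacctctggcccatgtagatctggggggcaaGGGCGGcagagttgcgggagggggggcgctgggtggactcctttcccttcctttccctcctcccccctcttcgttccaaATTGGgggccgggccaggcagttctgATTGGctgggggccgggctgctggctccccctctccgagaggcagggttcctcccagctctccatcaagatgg
*Col1a2*, chr6:4504564-4504813, plus strand: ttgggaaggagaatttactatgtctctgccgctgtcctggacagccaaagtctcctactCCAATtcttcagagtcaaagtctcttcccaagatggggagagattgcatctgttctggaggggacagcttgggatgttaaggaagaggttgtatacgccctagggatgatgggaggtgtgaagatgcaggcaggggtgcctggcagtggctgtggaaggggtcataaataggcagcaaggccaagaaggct
*Col3a1*, chr1:45311288-45311537, plus strand: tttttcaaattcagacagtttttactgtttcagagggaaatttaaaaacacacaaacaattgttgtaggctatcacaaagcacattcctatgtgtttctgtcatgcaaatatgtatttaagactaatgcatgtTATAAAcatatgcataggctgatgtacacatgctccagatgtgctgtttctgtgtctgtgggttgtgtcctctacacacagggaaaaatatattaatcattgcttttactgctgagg
*Col5a3*, chr9:20815068-20815317, minus strand: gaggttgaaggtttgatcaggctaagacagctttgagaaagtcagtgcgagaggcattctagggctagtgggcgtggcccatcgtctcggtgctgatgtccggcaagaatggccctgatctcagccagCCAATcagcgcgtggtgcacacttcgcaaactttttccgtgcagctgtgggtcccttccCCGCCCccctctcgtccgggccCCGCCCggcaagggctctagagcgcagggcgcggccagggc

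*Col1a1* holds CCAAT letters at 99 and 73 bases before the start and a GC box at 178, *Col1a2* holds CCAAT at 191, *Col3a1* holds TATAAA at 117, and *Col5a3* holds CCAAT at 122 and GC boxes at 63 and 41. The 250 bases before the 5′ end of *Col5a2*, not shown, hold none of these letters. For the counts over genes, the 250 bases before the 5′ end were searched on both strands, or those before an inner start where the best peak missed the 5′ end, as it did in *Col15a1*, *Col18a1*, *Col19a1*, *Col25a1* and *Col27a1*. CCAAT occurs in 13 of the 38 collagen genes (34.2%) and in 35.7% of all protein-coding genes. The GC box occurs in 20 (52.6%) and in 41.3%, and TATAAA in 5 (13.2%) and in 11.2%. Matches were counted at any position in the 250 bases, and a match of letters is not a bound site.

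Of the 6 type VI chains, 5 had a GFP- start peak and all 5 ranked over 20 points lower in GFP+, with a median difference of -60.3. The chains encoded by *Col6a1*, *Col6a2* and *Col6a3* make the common type VI microfibril. *Col6a1* ranked 75.7 and *Col6a3* 64.6 in GFP-, both with no start peak in GFP+. *Col6a2* kept a GFP+ start peak of 357 bp where the GFP- peak spanned 1308 bp. *Col6a5* (60.3) and *Col6a6* (45.0), which encode alternatives to the third chain, had GFP- start peaks only. *Col6a4* had none in either list. *Col6a1* and *Col6a2* are neighbours on chromosome 10 and both read from the minus strand. Their start peaks are separate, but the ranks of neighbouring genes may not be independent. *Col6a4*, *Col6a5* and *Col6a6* are likewise neighbours on the minus strand of chromosome 9. *Col3a1* and *Col5a2* lie next to each other on chromosome 1 but are read from opposite strands, with their starts at far ends of the pair.

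The 2 multiplexin genes had peaks at different starts in the lists. *Col18a1*, whose product is the source of endostatin, has annotated coding starts at its 5′ end and 52.6, 52.8, 77.1 and 107 kb inside the gene. The GFP+ list had a peak of 267 bp at the 5′ end only, at rank 35.5, chr10:77166463-77166729. The GFP- list had none there, and instead had peaks at the inner starts, at rank 67.4, chr10:77113634-77114218, and at rank 48.0, chr10:77089284-77089774. None of these 3 peaks overlapped a peak of the other list. Counted at the 5′ ends of gene records alone, *Col18a1* is the 1 member that ranked higher in GFP+ by more than 20 points. *Col15a1*, the related chain of vessel and muscle basement membrane zones, ranked 53.5 in GFP- and 14.9 in GFP+ at its 5′ end. Its highest GFP- start peak, at rank 78.1, lay at a noncoding start 25.1 kb inside the gene, chr4:47233431-47234480, with no GFP+ peak.

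**Figure D2:**
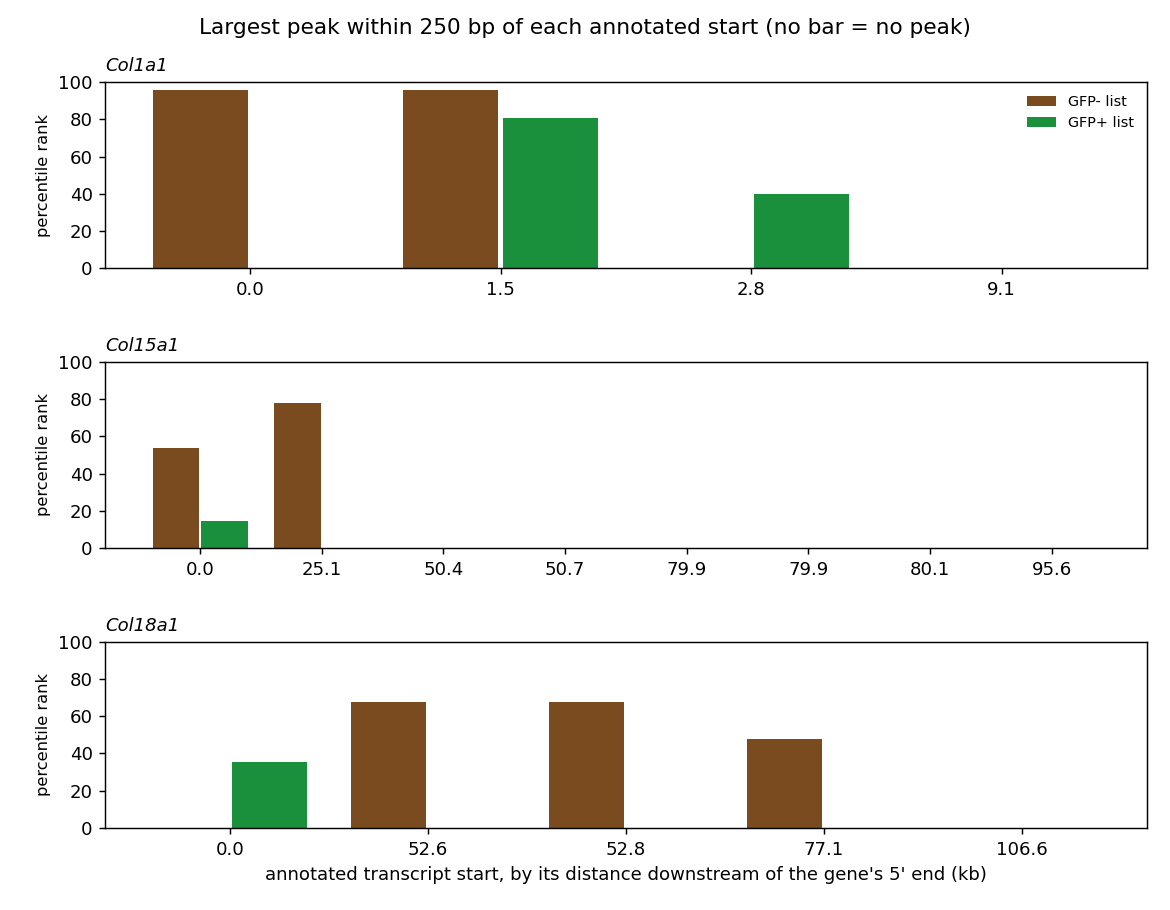
Percentile rank of the largest peak within 250 bp of each annotated transcript start of *Col1a1*, *Col15a1* and *Col18a1*, ordered by distance from the 5′ end of the gene in kb, in the GFP- (brown) and GFP+ (green) lists. In *Col18a1* the GFP+ bar stands at the 5′ end alone and the GFP- bars at inner starts alone, and in *Col1a1* the 5′ end has a GFP- bar and no GFP+ bar. The pair of *Col1a1* peaks near the 2.8 kb start overlap each other, and only the GFP+ one reaches the 250 bp window.

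Of the FACIT genes, 5 of 9 had a start peak and 2 ranked lower by more than 20 points. These were *Col12a1*, which coats type I fibrils (47.9 in GFP- and 6.98 in GFP+), and *Col22a1*, known from tissue junctions (50.6 and 14.1). *Col16a1* ranked 87.7 and 78.1, with a start of *Gm12963* within 250 bp of the same peak. *Col14a1*, a fibril-coating chain of fibroblasts, ranked 11.0 and *Col19a1* 2.11 in GFP-, both with no GFP+ start peak. The network chains *Col8a1* (55.2) and *Col8a2* (20.9), which form sheets in vessel walls and Descemet's membrane, had GFP- start peaks only. *Col26a1*, at 29.4, was alike in this. Among the transmembrane chains, *Col23a1* ranked 90.6 in GFP- and 87.8 in GFP+, the smallest difference of members with a peak in both lists. *Col13a1* ranked 62.0 and 51.6 by its best peaks, but the GFP+ one lay at a noncoding start 0.987 kb inside the gene, and at the coding 5′ end the GFP+ rank was 9.57. The GFP- peak, chr10:61977843-61978865, covers that inner start and the GFP+ peak there, chr10:61978017-61978605. Only the edge of the GFP- peak reaches the window of the 5′ end. *Col25a1*, at a start 49.4 kb inside its record, ranked 74.8 and 52.2. No start peak was found in either list at *Col9a1*, *Col9a2*, *Col9a3* and *Col10a1*, known from cartilage, nor at *Col7a1* and *Col17a1*, known from the skin basement membrane, *Col20a1* and *Col28a1*. The 18 other-type genes with a start peak had a median difference of -34.3, and 13 of them ranked lower by more than 20 points. This is not a test against the 6 of 9 fibrillar genes, and the interval of the fibrillar median from order statistics ran from -78.3 to 9.64.

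Start peaks of the collagen genes were smaller than those of most genes. The median rank of GFP- start peaks, genes without one counted as 0 where the GFP+ list had one, was 64.6 over the members and 90.3 over all genes. Small start peaks were less often matched in all genes, so the counts were divided by GFP- rank, a division chosen after the values had been seen. Of GFP- start peaks ranked above 75, 7 of 10 collagen genes ranked over 20 points lower in GFP+, and 2.72% of all 10995 such genes did. Between 50 and 75 the counts were 7 of 9 and 28.6% of 1433, and below 50 they were 5 of 7 and 28.6% of 1016. A gene ranked 20 or less in GFP- cannot rank over 20 points lower, which holds down both shares below 50. There, 6 of the 7 collagen genes and 40.6% of the 1016 had a start peak in GFP- only. The collagen share ranked lower was above that of all genes at each level of GFP- rank, with at most 10 collagen genes in each. CpG content moved with the result too. The ratio of observed to expected CpG within 250 bp of that same start (the 5′ end, or the inner start of the best peak) had a median of 0.586 in the 13 collagen genes with a start peak in both lists, 0.413 in the 13 with one in GFP- only and 0.310 in the 11 with none. Over all genes these medians were 0.791, 0.477 and 0.201. Among genes with a ratio under 0.6 and a GFP- start peak, 14 of 19 collagen genes ranked lower against 18.7% of 3138 genes, and with a ratio of 0.6 or more 5 of 7 did against 4.02% of 10306.

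The type IV collagen genes are set beside these without a test of the difference. Of 6 genes, 5 had a start peak in both lists, and their median difference was -14.5. *Col4a1* and *Col4a2*, the main basement membrane chains, share a start that ranked 97.5 in GFP- and 94.1 in GFP+. *Col4a3* and *Col4a4* share one at 82.2 and 67.8. *Col4a5* alone ranked lower by more than 20 points, from 53.7 in GFP- to 27.1 in GFP+, and *Col4a6* had no start peak.

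The peaks away from starts were counted in 2 kinds. Body peaks have their summit inside the gene record and miss the start windows, and distal peaks lie outside it, more than 1000 bp from any annotated start, with a start of the member as the nearest coding start. A peak was shared when it overlapped a peak of the other list by at least 1 bp. Members held 179 body peaks in GFP- and 105 in GFP+. Of the GFP- body peaks, 90 (50.3%) had no GFP+ overlap, where 33.9% of the 37938 body peaks of all genes had none. Of 136 distal GFP- peaks, 88 (64.7%) had no GFP+ overlap, where 37.2% of all 30006 had none. In the other direction the members were near the background. Of the GFP+ body peaks, 14 of 105 (13.3%) had no GFP- overlap, against 16.3% of all, and of the distal ones 8 of 58 (13.8%), against 16.3%. The share of the gene record covered by peaks had a median of 1.86% in GFP- and 0.828% in GFP+ over the members, and of 2.41% and 1.94% over all protein-coding genes.

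Division by GFP- rank was again added after the values had been seen. Of distal GFP- peaks ranked above 75, 11 of 23 (47.8%) had no GFP+ overlap at the members and 13.2% at all genes. Between 50 and 75 it was 28 of 45 (62.2%) and 26.5%, and below 50 it was 49 of 68 (72.1%) and 48.6%. For body peaks the shares were 37.5% and 8.04% above 75, 27.5% and 19.6% between, and 64.4% and 46.6% below 50.

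Of the 48 shared distal GFP- peaks of members, 38 overlapped a GFP+ peak of lower rank. Over all genes, 61.8% of the 18853 shared distal GFP- peaks did so. The rank of the overlapping GFP+ peak minus that of the GFP- peak had a median of -10.7 over these 48 peaks and -2.60 over all. For the 89 shared body peaks it was -5.09, and -2.41 over all 25076.

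Fibrillar and other types had like shares of shared body peaks, 28 of 56 (Wilson 95% interval 37.3 to 62.7%) and 61 of 123 (49.6%, 40.9 to 58.3%). Of distal peaks, 11 of 51 were shared at fibrillar genes (21.6%, 12.5 to 34.6%) and 37 of 85 at other types (43.5%, 33.5 to 54.1%). These intervals cover counting error only, peaks of 1 gene are not independent, and the difference was not tested. At type VI genes 10 of 36 distal peaks were shared (27.8%, 15.8 to 44.0%), at FACIT genes 12 of 19 (63.2%, 41.0 to 80.9%) and at type IV genes 15 of 20 (75.0%, 53.1 to 88.8%). Over all genes 62.8% of distal peaks were shared.

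**Figure D3:**
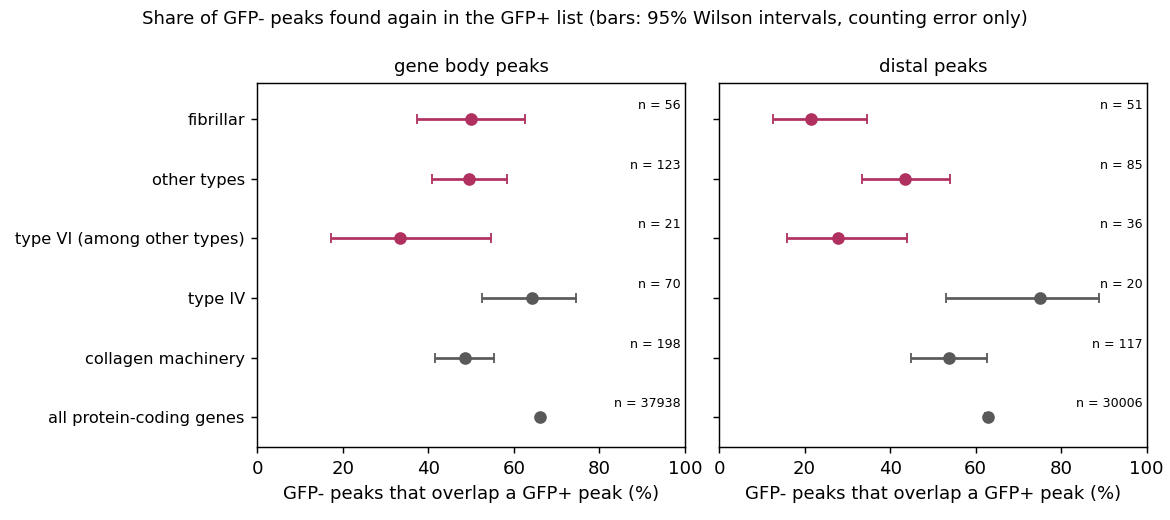
Share of GFP- body peaks (left) and distal peaks (right) that overlap a GFP+ peak, in percent, for collagen groups (red), and for type IV, collagen machinery and all genes (grey), with 95% Wilson intervals that cover counting error only. The distal share lies at 21.6% for fibrillar genes, 27.8% for type VI and 75.0% for type IV, against 62.8% for all genes.

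Most of the unshared fibrillar distal peaks lay around 3 genes. *Col1a1* had 14 distal GFP- peaks, 5 of them shared, *Col1a2* had 12 with 1 shared, and *Col3a1* had 11 with 1 shared. *Col5a1* had 8 with 2 shared. At *Col6a2* all 9 distal GFP- peaks, between 9144 and 45532 bp upstream of its start, had no GFP+ overlap, and the 5 largest of them ranked between 68.5 and 82.7. *Col6a3* had 15 distal GFP- peaks with 3 shared, and 14 of the 15 lay downstream of the gene. *Col6a1* had 8 with 5 shared. *Col14a1* had 12 body peaks in GFP- with 1 shared, although its start peak ranked only 11.0. *Col27a1* had the most body peaks, 22 with 12 shared. *Col13a1* differed from these, with 9 of 10 body peaks and 5 of 5 distal peaks shared.

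**Figure D4:**
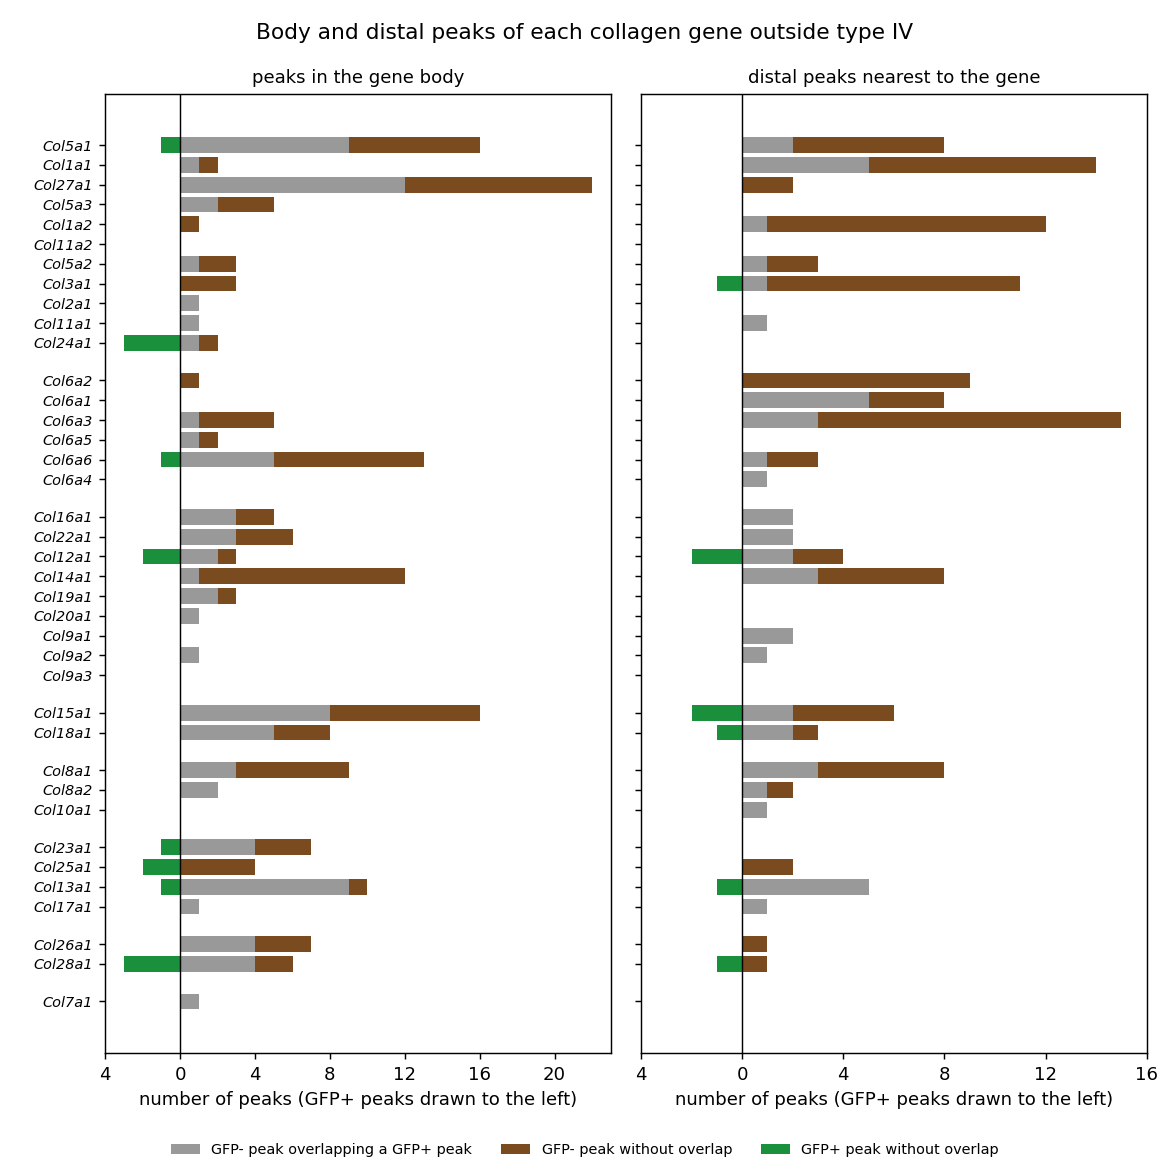
Number of body peaks (left) and distal peaks (right) of each collagen gene, as GFP- peaks that overlap a GFP+ peak (grey), GFP- peaks without overlap (brown) and GFP+ peaks without overlap (green, drawn to the left of 0). Brown makes up the whole distal bar of *Col6a2* and nearly all of those of *Col1a2* and *Col3a1*, and green bars reach at most 3 peaks.

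The 2 largest GFP- only body or distal peaks of any member were at *Col15a1*. A peak of 1686 bp at rank 94.3, chr4:47178100-47179785, had its summit 29901 bp upstream of the gene, and a peak of 733 bp at rank 87.9, chr4:47236942-47237674, lay in an intron 29.3 kb inside it. The next, of 1262 bp at rank 87.1, chr6:4489150-4490411, had its summit 15255 bp upstream of *Col1a2*. The largest GFP- only peak of *Col3a1* ranked 66.6, chr1:45276020-45276451, with its summit 35333 bp upstream. None of these had any overlap in the GFP+ list, so the GFP+ rank is 0 for each.

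The 200 bases around the summits of these 4 peaks are shown, from the plus strand of mm10, because they are the largest accessible stretches of these genes without GFP+ overlap. Capitals mark TGANTCA, the letters read by AP-1 factors, and CAGCTG, the E-box read by TCF21. Both words read the same on either strand.
*Col15a1*, upstream, chr4:47178160-47178359: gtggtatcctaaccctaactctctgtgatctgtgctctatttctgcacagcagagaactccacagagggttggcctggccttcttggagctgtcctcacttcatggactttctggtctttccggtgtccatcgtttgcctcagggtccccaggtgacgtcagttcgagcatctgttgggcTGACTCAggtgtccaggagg
*Col15a1*, intron, chr4:47237360-47237559: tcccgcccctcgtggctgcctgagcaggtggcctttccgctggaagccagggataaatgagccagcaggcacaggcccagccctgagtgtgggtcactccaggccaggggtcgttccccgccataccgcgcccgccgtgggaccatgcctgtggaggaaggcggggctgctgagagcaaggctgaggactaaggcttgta
*Col1a2*, upstream, chr6:4489459-4489658: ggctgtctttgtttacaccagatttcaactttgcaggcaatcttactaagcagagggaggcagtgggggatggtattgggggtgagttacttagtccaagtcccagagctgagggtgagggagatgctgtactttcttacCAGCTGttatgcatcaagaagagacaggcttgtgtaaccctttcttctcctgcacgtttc
*Col3a1*, upstream, chr1:45276105-45276304: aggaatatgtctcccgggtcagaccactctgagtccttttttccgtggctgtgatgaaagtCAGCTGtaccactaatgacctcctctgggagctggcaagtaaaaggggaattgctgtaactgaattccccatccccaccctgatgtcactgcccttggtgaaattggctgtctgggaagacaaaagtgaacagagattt

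An AP-1 word was found in the first, a TCF21 word in those of *Col1a2* and *Col3a1*, and neither in the intron window of *Col15a1*. The counts that follow refer to the 200 bases around each summit and not to whole peaks. Over all 178 GFP- only body and distal peaks of members, the AP-1 word occurred in 41 (23.0%, Wilson 95% interval 17.5 to 29.7%), and in 15.0% of the 22172 such peaks of all genes. In the 136 shared ones it occurred in 16 (11.8%, 7.37 to 18.3%), and in 9.41% of all 40413. The TCF21 word occurred in 54 of the 178 (30.3%, 24.1 to 37.4%) and in 29.0% of all, and in 29 of the 136 shared member peaks and 8498 of all 40413. Words of other factors were searched on both strands in the same 178 GFP- only peaks. The ETS word CAGGAAGT occurred in 7 (3.93%, against 3.29% of all) and the SOX word CCATTGT in 5 (2.81%, against 2.07%). The RUNX word TGTGGTT occurred in 11 (6.18%, against 5.10%) and the GATA word AGATAA in 20 (11.2%, against 10.2%). For each of these the share over all genes lay within the members' Wilson interval. These intervals cover counting error only, and peaks of 1 gene are not independent. The TEAD word GGAATG occurred in 33 of them (18.5%, against 16.0% of all) and in 31 of the 136 shared ones (22.8%, 16.5 to 30.5%, against 14.3% of all). No test was made on these counts, which cover 7 words.

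**Figure D5:**
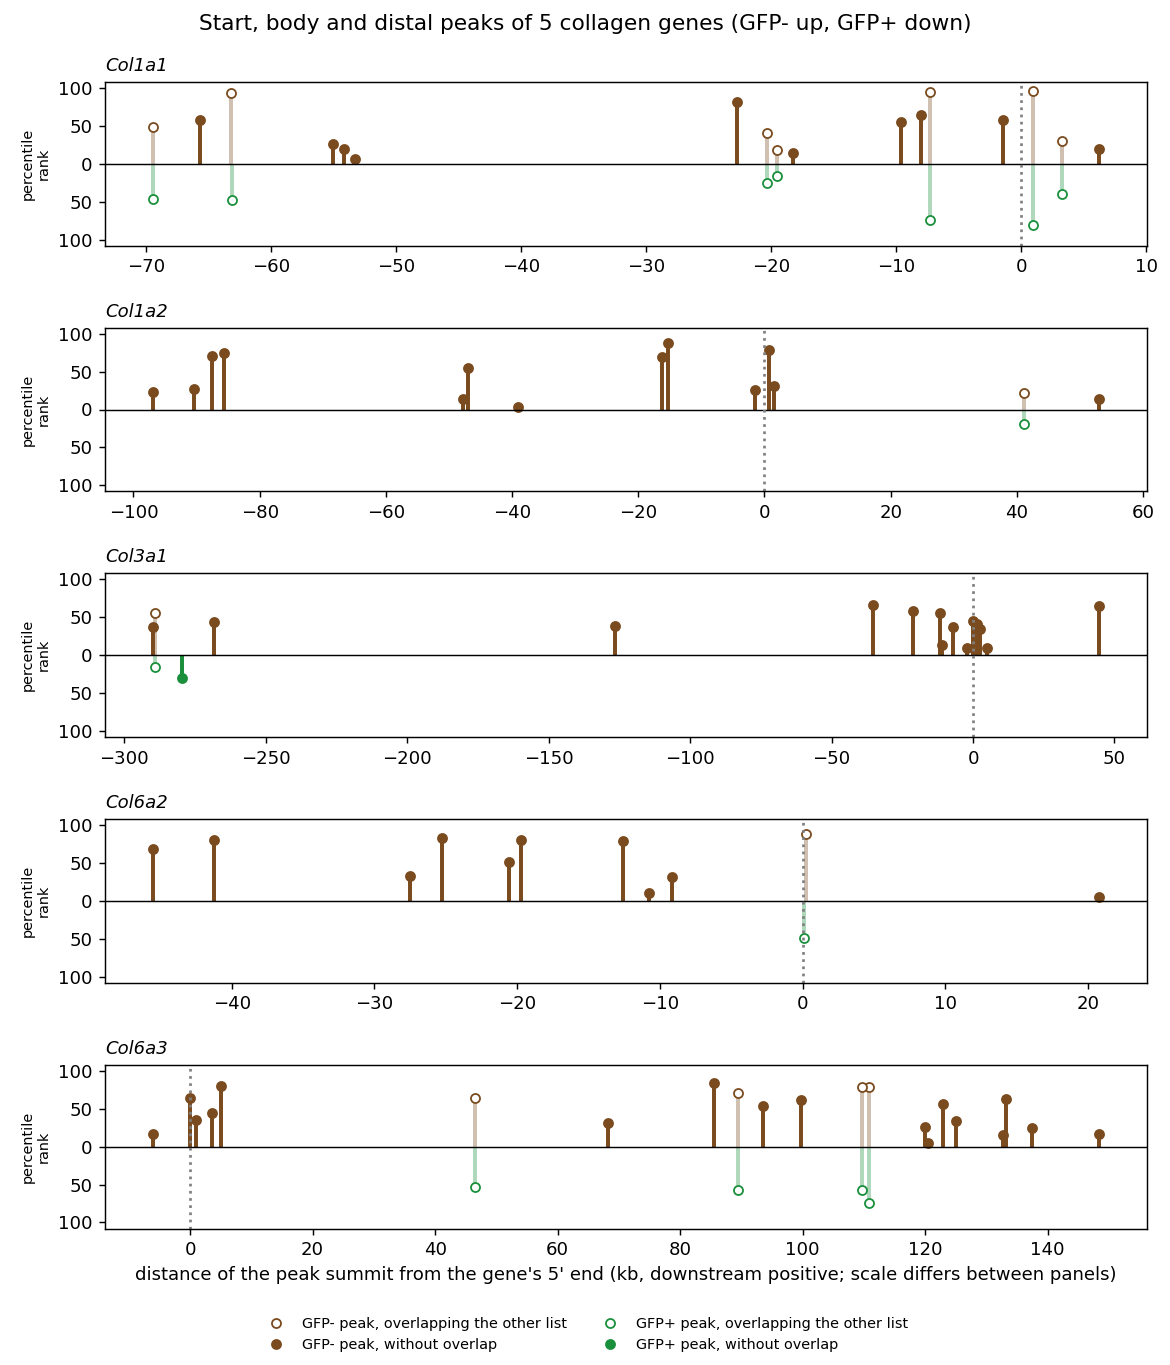
Start, body and distal peaks of *Col1a1*, *Col1a2*, *Col3a1*, *Col6a2* and *Col6a3*, by the distance of the summit from the 5′ end of the gene in kb (downstream positive) and by percentile rank, with GFP- upward in brown, GFP+ downward in green, open and pale where the peak overlaps one of the other list and filled where it does not. Filled brown peaks make up nearly all peaks of *Col1a2*, *Col3a1* and *Col6a2*.

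Among body and distal peaks, the 3 largest shared ones were distal and ranked lower in GFP+ each time. The peak 6985 bp upstream of *Col6a1*, chr10:76731251-76733856, ranked 96.9 in GFP- and 55.9 in GFP+. There 2606 bp in GFP- faced a GFP+ peak of 558 bp and another of 360 bp at rank 36.7. The shared peak 173828 bp upstream of *Col8a1*, chr16:57927715-57928928, ranked 95.9 and 74.3. It overlapped another GFP+ peak of 291 bp at rank 64.7. The shared peak 7262 bp upstream of *Col1a1* ranked 94.5 and 74.0, chr11:94928549-94930334. At *Col6a1* the start peak itself was absent from GFP+ while this upstream peak was present in both lists.

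The 22 GFP+ only body and distal peaks included 4 each at *Col28a1* and *Col12a1* and 3 at *Col24a1*, and the 3 largest lay in introns of genes without a start peak in either list. *Col28a1* had them at rank 66.4, chr6:8178386-8178972, and 58.9, chr6:8174052-8174499, and *Col24a1* at rank 59.5, chr3:145471174-145471567. The summit of the first lay 14.1 kb inside *Col28a1*. The *Col24a1* window is shown as the only one of these 3 that holds both words, marked as above.
*Col24a1*, intron, chr3:145471165-145471364: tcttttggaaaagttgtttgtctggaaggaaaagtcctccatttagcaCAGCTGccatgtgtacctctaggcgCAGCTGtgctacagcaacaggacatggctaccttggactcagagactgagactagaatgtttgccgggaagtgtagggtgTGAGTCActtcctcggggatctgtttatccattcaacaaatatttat

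The machinery that makes, processes, binds and breaks down collagen is set beside the collagens without a test of the difference. Of 53 listed genes, 47 had a start peak in either list. Of these 47, 9 ranked over 20 points lower in GFP+, where 7.33% of all genes with a start peak did so. Higher by as much were 0, against 1.94% of all genes. The median difference was -4.25, against -0.814 over all genes. Of the 12 hydroxylation and glycosylation genes with a start peak, 1 was lower, *Colgalt2* (82.4 in GFP- and 62.4 in GFP+), and the prolyl 4-hydroxylase gene *P4ha1* ranked 97.2 and 96.2. Of the 8 folding and secretion genes, 0 were lower, and *Serpinh1*, the collagen chaperone HSP47, ranked 96.8 and 97.4. Of 8 propeptide cleavage genes, 1 was lower, the N-proteinase gene *Adamts14* (84.4 and 32.6). Of 4 cross-linking genes with a start peak, 2 were lower, *Lox*, lysyl oxidase (79.4 and none), and *Loxl1* (90.9 and 60.0). Of 8 receptor genes with a start peak, 3 were lower, the discoidin receptor gene *Ddr2* (69.2 and none), the integrin gene *Itga11* (26.7 and none) and the collagen uptake receptor gene *Mrc2* (95.1 and 11.6). Of 7 breakdown genes, 2 were lower, the gelatinase gene *Mmp2* (75.6 and none) and the collagenase gene *Mmp8* (52.3 and none). Of the distal GFP- peaks of the machinery genes, 63 of 117 were shared (53.8%, 44.8 to 62.6%), against 62.8% over all genes.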

How the data were processed

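ATAC-Seq libraries of sorted heart nuclei from NuTRAP/Cdh5-Cre mice (2 GFP-, 2 GFP+) were grouped by their labels. Before deposit, the authors cleaned reads with fastp, aligned them to mm10 (bowtie2), filtered by mapping quality (samtools) and removed duplicates (Picard). Libraries were downsampled, and Genrich in its ATAC mode called peaks on both replicates of a population together, without the mitochondrial genome, chrY and blacklisted regions. The deposited area is a signal that the authors' caller summed over each peak, and no area was under 200. The deposited -log10 p is that of the summit. The deposited score is that area divided by length, scaled and limited to 1000 by the authors' caller. Downsampling evens depth before calling, but a small peak can fall below the limits of calling in one list only, and read counts are not analysed here.

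Genes and transcript starts came from GENCODE M21 and sequence from GRCm38.p6, on chromosomes 1 to 19 and X. All 38 members are described, the fibrillar, type VI, XV and XVIII genes and those with a rank difference over 20 points singly. Single peaks named are the 3 largest GFP- only, GFP+ only and shared ones over all members, and the largest unshared one of *Col1a1*, *Col1a2* and *Col3a1*, of which 1 is not reported here. Machinery and type IV genes are named where they differ by over 20 points, and *P4ha1*, *Serpinh1* and the other type IV genes were added after their values were seen, as were other peak counts and marker genes given as examples. Members, gene lists and words were chosen with earlier results of these data known. Shares have Wilson 95% intervals. Overlap and start steps were tested on simulated data, where 0 of 1500 simulated peaks differed from a direct comparison and 0 of 200 planted start peaks were missed. Python 3.11.15, numpy 2.4.6, pandas 2.3.3, pysam 0.24.0 and matplotlib 3.10.9 were used. Alternatives changed the ranking measure, start window and definition, list length, rank threshold, overlap and distance limits.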

Additional observations from a re-analysis of the deposited data

How the results depend on the processing

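The 10 counts, medians and shares were recomputed under those of 16 alternative settings that apply to each, which gave 76 values, and 70 of these stayed within 1.5 times a count or within the 95% interval of a median or share. Start peaks numbered 23 to 27 of 38 in GFP- and 10 to 17 in GFP+, and genes ranked lower in GFP+ numbered 14 to 22, the lowest with a threshold of 30 points. The count ranked higher in GFP+ was 1 in place of 0 with the 5′ end of the gene record alone (*Col18a1*) and with a threshold of 10 points (*Col2a1*). The fibrillar median difference ran from -56.5 to -17.7 and that of other types from -39.3 to -20.0. The 95% interval of the fibrillar median, -78.3 to 9.64, is wide and includes 0, so staying within it is a weak check. For other types, requiring an overlap of 50% of both peaks moved the shared body share to 40.7% and the shared distal share to 30.6%, and 50% of the GFP- peak alone moved them to 40.7% and 31.8%. The fibrillar distal share, 13.7 to 25.6%, lay below that of other types under each of these alternatives. No paired analysis was possible because each list was called from both replicates together, and no replicate could be left out for the same reason. A missing peak means that none was called at this depth, not that the DNA was closed.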
